A study of Oryza sativa with 12 samples.

Results

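The 5 genes described here take rice metabolism from chorismate towards serotonin. They were chosen by locus identifier among the 37672 loci of the authors' deposited table: the anthranilate synthase genes ASA1 (Os03g0826500) and ASA2 (Os03g0264400), the tryptophan decarboxylase genes TDC1 (Os08g0140300) and TDC3 (Os08g0140500), and the gene for tryptamine 5-hydroxylase, T5H (Os12g0268000). All 5 are in the table.

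Anthranilate synthase commits chorismate to tryptophan and joins an alpha subunit, encoded by ASA1 and ASA2, to a beta subunit that supplies ammonia from glutamine. Tryptophan, the end product, feeds back to inhibit this enzyme. Tryptophan decarboxylase turns tryptophan into tryptamine, and T5H, a cytochrome P450 of the endoplasmic reticulum that is mutated in the Sekiguchi lesion plants, hydroxylates tryptamine to serotonin. In rice leaves this route is known for its induction by fungal infection and during senescence. Serotonin can be built into cell walls or converted to melatonin by N-acetylation and O-methylation.

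RNA was sequenced from whole aerial parts of rice (Oryza sativa, cultivar Nipponbare) in 12 samples, 3 biological replicates in each of 4 groups. The wild type was sampled on day 5 (WT5) and day 12 (WT12), and on day 12 plants were also taken of the T3 generation of 2 lines, a and b, knocked out for OsC3'H1, the gene for a p-coumaroyl ester hydroxylase of lignin synthesis. All groups grew in sterile boxes at 27 °C with 12 h of light a day, on diluted Murashige and Skoog medium set with 0.4% agar, and a move to a hypotonic tap-water solution on day 7 is described for the wild type alone. Genotype and medium therefore cannot be told apart against WT12, nor genotype and age against WT5. The line letters are those of the sample titles and of the table, and the source names give them the other way round, so each result of a single line would belong to the other letter if those are right. How each line was edited, and whether a line is 1 clone, is not given in the sources used here.

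The authors' deposited table gives 1 FPKM value per group (fragments mapped per length of transcript and per sequencing depth), so the spread between replicates cannot be shown and the depth is unknown. A locus was called where the deposited Cuffdiff q was under 0.05. The error beside each log2 ratio is the one implied by the deposited test statistic (the ratio divided by the statistic). The targeted OsC3'H1 stood at 65.7 and 53.1 FPKM in WT5 and WT12 and at 10.7 and 12.8 in lines a and b of the deposited table. Of the tissue markers, RBCS, the small subunit of Rubisco, stood at 20083 FPKM in WT5, 23720 in WT12, 1507 in line a and 1452 in line b of the deposited table. All 3 shoot markers (RBCS, CAB1R, CAB2R) fell in both lines against both wild types. CAB1R was listed at 319, 53.1, 29.4 and 29.0 FPKM in the same order, and CAB2R at 840, 273, 43.0 and 29.9. Unlike RBCS, both were also called lower in WT12 than in WT5 (log2 -2.59 and -1.62, q = 0.000253 each). The root silicon channel LSI1 was listed at 10.7, 2.31, 6.56 and 6.99 FPKM in the same order, while the silicon transporter LSI2 was at 0 in every group. LSI1 rose 2.84-fold and 3.02-fold against WT12 and fell 1.64-fold and 1.54-fold against WT5, calls that were lost on the implied error (adjusted q of 0.128 to 0.426). The seed storage gene GLUA2 was listed at 2.41 to 3.22 FPKM and was not tested. Bulk values do not separate fewer cells of a type from less RNA per cell, and the part of these markers in the results that follow was not tested.

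The 5 genes did not move together in the knockout lines. T5H rose 4.42-fold and 4.68-fold over WT12 in lines a and b. ASA1 fell, ASA2 and TDC3 rose against the same samples, and TDC1, at or near 0 in wild type, was listed at 3.36 and 4.09 FPKM in lines a and b.

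Set against WT12, line a had calls at 4 of the 4 members tested and line b at 4 of 5. In each, 3 were higher and 1 was lower. By the same rule 44.8% of all tested loci passed for line a, with 21.3% higher and 23.5% lower, and 46.3% for line b, with 22.2% higher and 24.2% lower. By the authors' own significance column, which follows a q under 0.1, the shares were 51.0% and 52.8%. Against so high a background the number of calls says little about these genes. The median deposited log2 ratio of the tested members was 1.12 over 4 genes in line a and 1.79 over 5 in line b, beside 0.00 over all tested loci in each. Without TDC1, whose ratio was tested in line b alone, the median in line b was 1.41 over the same 4 genes. The comparisons of lines a and b share the wild-type samples, so their likeness is not independent evidence.

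**Figure D1:**
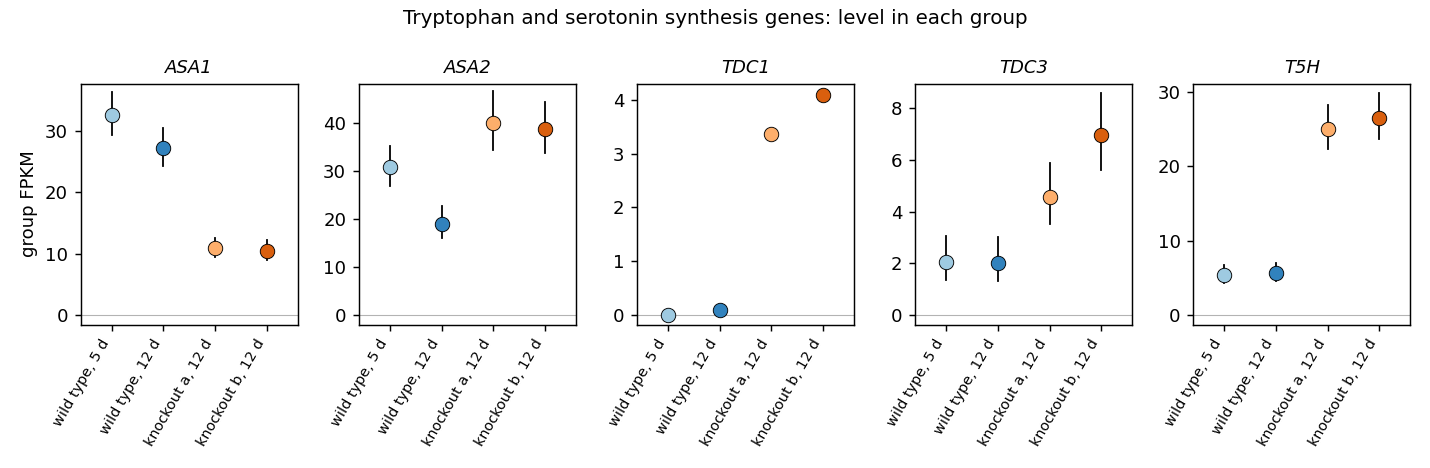
Deposited group FPKM (linear axis, 1 panel per gene with its own scale) in WT5 and WT12 and in knockout lines a and b; bars reach 1 implied group error (log2 scale) either side, which could not be solved for TDC1. T5H stood at 5.44 and 5.67 FPKM in the wild types and at 25.1 and 26.6 in the lines, while ASA1 dropped from 32.6 and 27.2 to 10.9 and 10.5.

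ASA1 lies on chromosome 3 at 34715520 to 34721072 of IRGSP-1.0, in coordinates as deposited. The table lists it at 32.6 FPKM in WT5, 27.2 in WT12, 10.9 in line a and 10.5 in line b, with implied group errors of 0.15 to 0.21 on the log2 scale. Both lines lie below both wild types by more than these errors. ASA1 fell 2.49-fold for line a (log2 -1.32 with an implied error of 0.27) and 2.59-fold in line b (log2 -1.37, implied error 0.27) against WT12, each with a deposited q of 0.000253. Against WT5 the falls were 2.99-fold and 3.10-fold (log2 -1.58 and -1.63, each with an implied error of 0.26). Between the ages in wild type ASA1 had a deposited log2 ratio of -0.26 (implied error 0.22, q = 0.0924) and was not called, although the authors' significance column marks it.

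ASA2 was deposited within a merged locus on chromosome 3, at 8698276 to 8707517, that also holds Os03g0264150, so its values may include reads of that neighbour. The locus stood at 30.9 FPKM in WT5, 19.1 in WT12, 40.1 in line a and 38.8 in line b of the authors' deposited table. WT12 has the lowest value, and the 5-day value lies nearer to the lines than to its older counterpart. Against WT12 ASA2 rose 2.10-fold for line a (log2 1.07 with an implied error of 0.33) and 2.03-fold in line b (log2 1.02, implied error 0.32), with a deposited q of 0.000253 in each. Against WT5 the deposited log2 ratios were 0.38 (q = 0.0672) and 0.33 (q = 0.0891), which did not pass. In wild type ASA2 fell between 5 and 12 days (log2 -0.69, implied error 0.32, q = 0.00152; adjusted q = 0.125 on the implied error), the only member called in that comparison of the 3 tested, where 28.3% of all tested loci were called (14.8% higher, 13.5% lower) and 34.4% are marked by the authors. The rise of ASA2 was thus called against 1 of the wild types.

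The balance between these 2 alpha-subunit genes differed between the lines and the wild types while their sum stayed between 46.3 and 63.5 FPKM. Per length, the ASA2 locus had 0.948 times the FPKM of ASA1 in WT5 and 0.704 times in WT12, against 3.68 times in line a and 3.70 times in line b. The ASA2 locus thereby held 48.7% and 41.3% of the summed FPKM of the pair in the wild types and 78.6% and 78.7% in the lines. As that locus is merged, these shares and the sums may include reads of the neighbouring gene. The sums were 63.5 and 46.3 FPKM in the wild types and 51.0 and 49.3 in the lines. These shares are sums of deposited group values with no error of their own and no test.

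**Figure D2:**
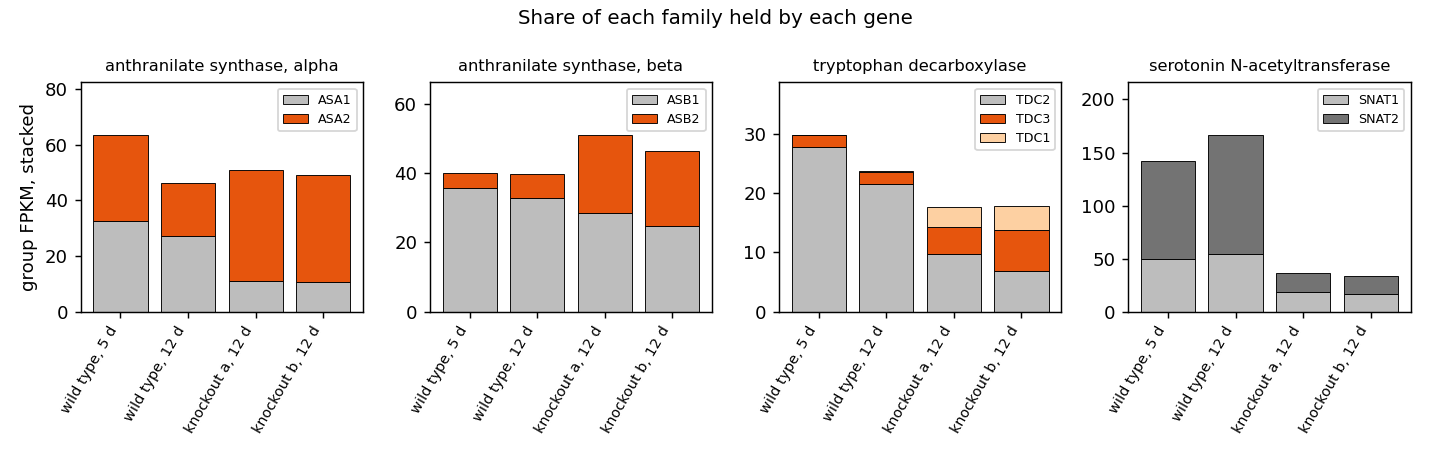
Stacked deposited group FPKM of the genes of 4 enzyme families in the 4 groups (linear axes from 0). In the lines the merged ASA2 locus makes up 78.6% and 78.7% of the alpha-subunit total. ASB2 makes up 44.2% and 46.5% of the beta-subunit total there. TDC1 and TDC3 together make up 44.7% and 61.7% of the decarboxylase total in the lines, and both SNAT genes are lower.

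The tryptophan decarboxylase genes lie close together on chromosome 8, TDC1 at 2256006 to 2257872 and TDC3 at 2268900 to 2270472, with 11028 bases between them. The 3 other loci within 30000 bases (Os08g0140600, Os08g0140700 and Os08g0141000) were listed at 0 FPKM in all 4 groups, so TDC1 and TDC3 were the only loci above 0 in that stretch of the table. How reads shared by related genes were divided is not given in the sources used here.

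TDC1 was listed at 0 in WT5, 0.0892 FPKM in WT12, 3.36 in line a and 4.09 in line b. Both lines stand above both wild types in the deposited values, but the tests were few. Cuffdiff made no test for line a against either wild type. For line b against WT12 the deposited log2 ratio was 5.52 with an implied error of 3.63, and it was not called (q = 0.293). Against WT5, where the level is 0 and no finite ratio exists, line b was called higher (q = 0.000253), and with no finite statistic that call could not be tested on an implied error. The lines had a log2 ratio of 0.28, b over a, with an implied error of 0.54 (q = 0.515).

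TDC3 was listed at 2.05 FPKM in WT5, 2.00 in WT12, 4.54 in line a and 6.93 in its counterpart b. The wild types lie within their implied group errors (0.58 and 0.59 on the log2 scale) of each other, and no test was made between them. Against WT12 TDC3 rose 2.27-fold for line a (log2 1.18 with an implied error of 0.69, q = 0.0429) and 3.46-fold in line b (log2 1.79, implied error 0.66, q = 0.00509). Against WT5 it rose 2.22-fold (q = 0.0170) and 3.39-fold (q = 0.000703) by the deposited values. The calls in line a did not hold with the implied error taken at face value, where the adjusted q became 0.286 and 0.301 against the 2 wild types, whereas line b kept its calls at 0.0391 and 0.0425.

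T5H lies on chromosome 12 at 9579772 to 9582014. It was listed at 5.44 FPKM in WT5, 5.67 in WT12, 25.1 in line a and 26.6 in line b, with implied group errors of 0.31 in each wild type and 0.17 in each line on the log2 scale. Both lines lie above both wild types by more than these errors. T5H rose 4.42-fold for line a (log2 2.15 with an implied error of 0.35) and 4.68-fold in line b (log2 2.23, implied error 0.35) against WT12. Against WT5 it rose 4.62-fold and 4.89-fold (log2 2.21 and 2.29), and each of these 4 comparisons had a deposited q of 0.000253. Of all tested loci, 4.98% had a higher ratio than T5H in line a against WT12 and 5.04% in line b. Age made no called difference in wild type (log2 0.06, implied error 0.44, q = 0.885).

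Set against WT5, line a had calls at 3 of 4 tested members, with 2 higher and 1 lower, beside 50.9% of all tested loci (24.7% higher, 26.2% lower). Line b had calls at 4 of 5, with 3 higher and 1 lower, beside 52.2% (25.6% higher, 26.6% lower). The authors' column marks 56.9% and 58.0% of loci here. The members with the same call against both wild types in both lines were ASA1, lower, and TDC3 and T5H, higher.

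**Figure D3:**
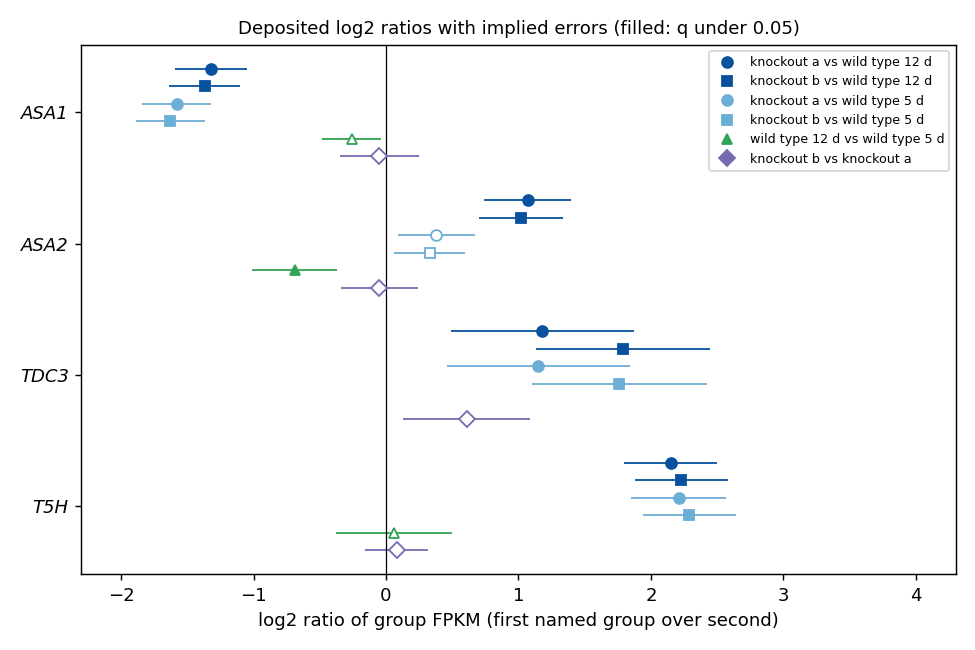
Deposited log2 ratios of group FPKM for ASA1, ASA2, TDC3 and T5H in 6 comparisons, first named group over second; bars are 1 implied error either side and filled symbols have q under 0.05. T5H lies near 2.2 against either wild type in both lines, ASA2 near 1 against WT12 only, and all 4 ratios between the lines are open symbols. TDC1 is not drawn because most of its ratios were not tested or not finite, and TDC3 was not tested between the wild types.

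The lines themselves were compared at all 5 members, and Cuffdiff called 0 of them, with 5.00% of all tested loci called (2.47% higher, 2.52% lower). At an unadjusted p under 0.05 the count was 1, TDC3, with a Cuffdiff q of 0.0753. The authors' column marks TDC3 too, beside 8.02% of all loci, and the test on the implied error called 0. The log2 ratio of line b over line a was 0.08 for T5H (95% interval -0.39 to 0.55), -0.05 for ASA1 (-0.64 to 0.53), -0.05 for ASA2 (-0.62 to 0.53), 0.28 for TDC1 (-0.77 to 1.34) and 0.61 for TDC3 (-0.33 to 1.55), with intervals from the implied errors. The interval was narrowest for T5H and widest for TDC1, and none of them shows that the lines are alike.

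The rest of the route was read from a list of 35 further loci for chorismate supply, its competing use, tryptophan synthesis, serotonin and melatonin synthesis and the auxin branch. Against WT12, 15 of its 28 tested loci were called for line a, 8 up and 7 down, beside 44.8% of all tested loci. For line b the count was 14 of 28, 7 in each direction, beside 46.3%, so both shares are near the background. Against WT5 the counts were 20 of 28 for line a, 9 up and 11 down, beside 50.9%, and 18 of 28 for line b, 7 up and 11 down, beside 52.2%. The median log2 ratios were 0.11 and 0.12 against WT12 and 0.10 and -0.06 against WT5, beside the 0.00 over all loci. The RefSeq annotation carries a matching symbol at the same place for 14 of the 35, and names are given only from among those. Os08g0484500, without such a symbol, is given by its identifier alone.

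Upstream, DAHP synthase opens the shikimate pathway that makes chorismate. DAHPS1 (Os03g0389700) went from 61.8 and 44.8 FPKM in WT5 and WT12 to 96.7 and 79.6 in lines a and b of the authors' deposited table. It rose against WT12 (log2 1.11 and 0.83, implied error 0.28 each, q = 0.000253) and, less steeply, against WT5 (0.65 and 0.37), where the call in line b was lost on the implied error (adjusted q = 0.327). DAHPS2, another gene for this enzyme, rose too (log2 0.53 and 0.46 against WT12), with the call in line b lost on the implied error (adjusted q = 0.101). Os08g0484500, listed for the same enzyme, went the other way. It stood at 159 and 150 FPKM in WT5 and WT12 and at 93.0 and 86.2 in lines a and b. Its falls against WT12 (log2 -0.69 and -0.80, q = 0.000253 each) kept their calls on the implied error (adjusted q = 0.0288 and 0.00313). The shikimate kinase genes SK1, SK2 and SK3, which act further down, were not called against WT12 in either line, with deposited ratios from -0.36 to 0.35. Against WT5, SK2 fell in both lines (log2 -0.69, q = 0.0373, and -0.92, q = 0.00859) and SK1 in line a (log2 -0.39, q = 0.00843). These 3 calls were lost on the implied error, with an adjusted q of 0.438, 0.294 and 0.260.

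The balance of the beta-subunit genes of anthranilate synthase also differed between the lines and the wild types. ASB2 (Os03g0718000) was listed at 4.37 and 7.08 FPKM in WT5 and WT12 and at 22.5 and 21.6 in lines a and b. Both lines stand above both wild types, with rises of 3.18-fold and 3.05-fold over WT12 (log2 1.67 and 1.61, implied error 0.44 each, q = 0.000253). ASB1 (Os04g0463500) was listed at 35.7, 32.7, 28.5 and 24.8 FPKM in the same order, not called in line a (q = 0.330) and lower in line b (log2 -0.40, implied error 0.29, q = 0.0377) against WT12, a call lost with the implied error taken at face value (adjusted q = 0.440). ASB2 held 10.9% and 17.8% of the summed beta-subunit FPKM in the wild types and 44.2% and 46.5% in the lines.

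One more decarboxylase gene fell where TDC3 rose. TDC2 (Os07g0437500), on chromosome 7, was listed at 27.7 and 21.6 FPKM in the wild types and at 9.77 and 6.84 in lines a and b. It fell 2.21-fold for line a (log2 -1.15 with an implied error of 0.42) and 3.17-fold in line b (log2 -1.66, implied error 0.43) against WT12, with a deposited q of 0.000253 in each. TDC1 and TDC3 together held 6.89% and 8.82% of the summed FPKM of the 3 genes in the wild types, and 44.7% and 61.7% in the lines. The sum itself was 29.7 and 23.7 FPKM in the wild types and 17.7 and 17.9 in the lines, so it was not higher in the lines.

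Downstream of T5H the acetylation and methylation steps differed. SNAT1 (Os05g0481000), a serotonin N-acetyltransferase, fell from 54.3 FPKM in WT12 to 18.6 and 16.3 in lines a and b (log2 -1.54 and -1.74, implied errors 0.28 and 0.30). SNAT2 (Os08g0102000), of the same activity, was listed at 112 FPKM in WT12 and at 17.5 and 17.0 in the lines, a fall of log2 -2.68 (implied error 0.35) and -2.73 (0.32), with a deposited q of 0.000253 in each line for both genes. Both proteins are known to reside in the chloroplast. The shoot markers given above fell in the same libraries, and whether these falls are linked was not tested. ASMT1 (Os09g0344500), an acetylserotonin O-methyltransferase of the last step to melatonin, was listed at 0 in WT5, 0.123 FPKM in WT12, 121 in line a and 94.9 in line b. Its lines lie far above its wild types, yet the ratios against WT12 were not called (log2 9.93 and 9.59, implied error 4.89 each, q = 0.357), while those against WT5 were called higher in both lines (q = 0.000253).

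Auxin synthesis also draws on tryptophan. FIB (Os01g0169800), a tryptophan aminotransferase, stood at 5.34, 6.84, 5.89 and 5.69 FPKM in WT5, WT12, line a and line b, and was called in no comparison. YUCCA1, the flavin monooxygenase that follows it, was listed at 1.03 to 1.83 FPKM and was not tested.

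**Figure D4:**
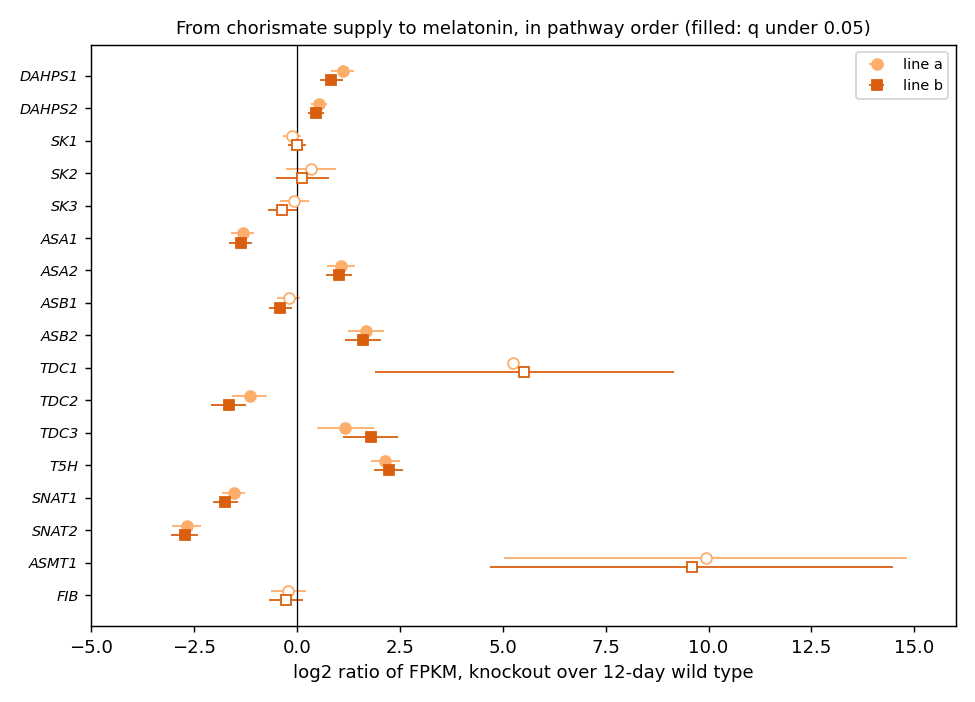
Deposited log2 ratios of FPKM, knockout over WT12, for genes in pathway order from chorismate supply to melatonin and auxin; bars are 1 implied error either side, filled symbols have q under 0.05, and TDC1 in line a was not tested and has no bar. DAHPS1, ASA2, ASB2, TDC3 and T5H lie right of 0 in both lines with filled symbols, ASA1, TDC2, SNAT1 and SNAT2 left of 0, and the wide bars of TDC1 and ASMT1 go with wild-type levels near 0.

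Likeness of pattern was measured as the distance between the 4 group values of log2(FPKM + 1), each gene centred on its own mean, over 20538 single-gene loci of at least 1 FPKM on average (20539 for ASA2). These points share the same libraries, and the distances are a description. For the lower TDC1 and TDC3 the added 1 sets much of the distance (the ratio of TDC1 in line b over WT12 is 2.23 on this scale and 5.52 as deposited). The same ratio of T5H changes little (2.05 on this scale and 2.23 as deposited). Its nearest locus, however, was listed at 0.00 FPKM in both wild types, where the added 1 sets the distance. No like gene is therefore named for T5H, TDC1 or TDC3. For ASA2 the nearest was Os11g0227000 (distance 0.038), at 25.0, 15.9, 33.7 and 32.0 FPKM, and DAHPS1 ranked 107. For ASA1 the nearest was Os02g0754700 (distance 0.041), at 39.5, 32.1, 13.6 and 12.8 FPKM, with TDC2 at rank 400 and SNAT1 at rank 417. The table and the RefSeq annotation give these nearest loci no name.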

How the data were processed

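RNA from 12 samples was sequenced, and only the deposited table of 6 pairwise Cuffdiff comparisons was used. Per the submitters' processing notes, the tools were Trimmomatic, FastQC, HISAT2, Cufflinks and Cuffdiff on IRGSP-1.0, with no versions or options. The authors' deposited FPKM are 1 value per group over 3 replicates. The deposited log2 ratios, the score of each test (Cuffdiff's statistic) and the p-value and q-value columns were taken as they stand, and q was adjusted over 108602 tests of all 6 comparisons. The smallest p-value in the deposited table is 5e-05, shared by 21471 tests, so a q of 0.000253 is the smallest possible. The median normal deviate of the deposited p was 1.75 times the statistic, so the deposited p treats ratios as more precise than the implied errors do.

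The members and lists were chosen with earlier results of these data known. Named were the members and listed pathway genes with a RefSeq symbol (assembly ASM3414082v1) on the same chromosome within 3% of its gene order, a limit set after the places were seen. ASA1, ASA2 and T5H met it. TDC1 and TDC3 carry the names given with their identifiers. Of the nearest loci by pattern, 3 were computed per member and the first of ASA1 and ASA2 is named. None is named for the others. The pseudocount sets much of the distance for TDC1 and TDC3, and for T5H it sets the distance to the nearest locus. P-values cover the 3 replicates, whose separate origin the labels give as biological. Computation used Python 3.11.15 with pandas 2.3.3 and scipy 1.17.1, and the adjustment and error functions were tested on simulated data. No sequence is shown, as none was used here. One listed gene is not reported here by name. Alternatives were a q under 0.01, a 2-fold minimum, adjustment within a comparison, the implied error, a minimum of 1 FPKM, a pseudocount of 1, loci with 1 gene and, added after seeing the data, the authors' significance column and centring on the median.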

Additional observations from a re-analysis of the deposited data

Results flagged for a closer look

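ASMT1 differed between the knockout lines. Its deposited log2 ratio of line b over line a was -0.34 (implied error 0.21, q = 0.0140), from 121 FPKM in line a to 94.9 in line b. It was the only one called of the 13 further pathway genes with a RefSeq symbol tested between the lines. Over the whole list 2 of 29 tested loci were called, beside 5.00% of all tested loci. The other call, at a locus without a RefSeq symbol, had a larger log2 ratio of 1.57 (q = 0.0134). With the implied error taken at face value the adjusted q was 0.311 for ASMT1 and 0.306 for the other locus. Adjusted within the comparison, q was 0.165 and 0.161, so neither call held.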

How the results depend on the processing

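No paired analysis was possible because the table holds 1 value per group, and for the same reason no replicate was left out. No called member changed direction under any alternative run, but none of these alternatives could have reversed one. Thresholds and adjustments leave the ratio as deposited, and a pseudocount of 1 keeps its sign. The medians used for centring were 0.00 or -0.01. Of 25 finite member ratios, 3 lost their call on the implied error (TDC3 in line a against both wild types, and ASA2 between the ages), 2 with q under 0.01 (TDC3 in line a) and 1 with a 2-fold minimum (ASA2 between the ages). The call of TDC1 in line b against 5-day wild type, listed at 0, has no implied error, so members called there went from 4 to 3 on that alternative. The authors' column added 4 (ASA2 in both lines against 5-day wild type, ASA1 between the ages, TDC3 between the lines). Between the ages, members called went from 1 to 0 with a 2-fold minimum, on the implied error and with 1-gene loci alone. By the authors' column they went from 1 to 2 between the ages and from 0 to 1 between the lines. Against 12-day wild type, members called went from 4 to 3 in each line with 1-gene loci alone, where the merged ASA2 drops out. Over all loci, a 2-fold minimum left 3816 (line a) and 4036 (line b) calls against 12-day wild type, 4582 and 4849 against 5-day wild type, 1203 between the ages and 148 between the lines. The implied error left 4059, 4205, 4788, 5031, 1465 and 118 in the same order. A q under 0.01 left 3239 between the ages and 401 between the lines, where adjustment within the comparison left 264 and the authors' column gave 1434. Depth is unknown, so what it limits could not be measured.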
